A study of Mus musculus with 15 samples.

Results

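The genes described here are 33 that serve the copying of DNA in S phase, the stage of the cell cycle in which the genome is duplicated. They were chosen by name, with earlier results of these data known, and all 33 are among the 23154 genes measured in each library. RNA was measured in single cells of the developing mouse heart at 4 stages of gestation, in steps from embryonic day E7.75 through E8.25 and E8.75 up to E9.25. Every embryo carried the Rosa26tdTomato reporter together with either Nkx2-5Cre or Isl1Cre. The reporter is switched on by Cre recombinase and stays on in the descendants of the cell, so Nkx2-5Cre marks cells with a history of the cardiac transcription factor gene Nkx2-5 and Isl1Cre those with a history of Isl1, a gene of second heart field progenitors. The 15 libraries form 8 groups, 1 for each lineage at each stage, with 2 libraries per group and 1 library for Isl1Cre at E9.25. In the 7 groups with 2 libraries the titles of both carry the same embryo number. The p-values below therefore measure only how far such libraries spread, which may be technical variation, and any difference between stages or lineages cannot be told apart from a difference between embryos.

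A replication origin is first licensed by loading the MCM helicase, then fired by helicase activators, after which polymerases primed by primase copy both strands behind a sliding clamp. Nucleotide synthesis, the joining of lagging-strand fragments and the packing of new DNA with histones accompany the fork. Many of these genes are transcribed around the transition from G1 to S under E2F transcription factors, so their RNA is a common mark of cells about to enter or passing through S phase. Cardiomyocytes of the embryonic heart still divide while they build sarcomeres, and the fall of proliferation with maturation is a known feature of heart muscle.

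Promoter sequences from RefSeq (GRCm38.p6, windows of 300 bases from 250 before to 50 after a start site) were found for 26 of the 33 genes. Entries for Mcm4, Gins1, Gins2, Tipin, Rfc2, Dscc1 and Exo1 were missing. The windows were searched on both strands for 4 spellings of the E2F consensus, TTTCCCGC, TTTGGCGC, TTTCGCGC and TTTGCCGC. At least 1 of these words stood in the promoters of 10 of the 26 genes (38.5%), against 413 of 8200 tested genes with a promoter entry (5.0%) and 704 of all 27025 genes in the promoter table (2.6%). The share was similar among other replication genes listed below (18 of 48, 37.5%), and 2 of 33 genes of G2 and mitosis held a word (6.1%). CCAAT, a common promoter element, was present in 16 of the 26 (61.5%) and in 43.4% of the tested genes. It stood in 54.2% of the other replication genes and 75.8% of the G2 and mitosis genes. A match describes the letters only. The stretches below, up to 30 bases around the word nearest a start site, are shown because they hold the sequence feature found in 10 of the 26 promoters. Capitals mark the E2F words on either strand, and each stretch reads 5′ to 3′ on the strand of its gene.

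Mcm6, chr1:128359734-128359763, minus strand: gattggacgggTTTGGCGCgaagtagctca
Mcm5, chr8:75109349-75109378, plus strand: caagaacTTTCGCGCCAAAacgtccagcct
Mcm3, chr1:20820275-20820304, minus strand: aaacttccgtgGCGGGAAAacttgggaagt
Mcm7, chr5:138171849-138171878, minus strand: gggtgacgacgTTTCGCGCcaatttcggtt
Cdc6, chr11:98908002-98908031, plus strand: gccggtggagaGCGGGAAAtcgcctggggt
Cdt1, chr8:122568036-122568064, plus strand: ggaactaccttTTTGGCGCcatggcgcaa
Pola1, chrX:93632275-93632304, minus strand: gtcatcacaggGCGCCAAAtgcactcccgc
Lig1, chr7:13278841-13278870, plus strand: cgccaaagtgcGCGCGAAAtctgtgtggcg
Uhrf1, chr17:56304117-56304146, plus strand: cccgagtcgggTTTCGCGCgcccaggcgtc
Hells, chr19:38930917-38930946, plus strand: gaccaccgggtTTTCCCGCgaaagagaagc

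6 of these 10 genes act in licensing. In Mcm5 and Mcm6 words on opposite strands overlap. Mcm6, a subunit of the helicase, held 3 words, and the 250 bases before its start site (chr1:128359706-128359955, minus strand) are given as the longer example:
Mcm6: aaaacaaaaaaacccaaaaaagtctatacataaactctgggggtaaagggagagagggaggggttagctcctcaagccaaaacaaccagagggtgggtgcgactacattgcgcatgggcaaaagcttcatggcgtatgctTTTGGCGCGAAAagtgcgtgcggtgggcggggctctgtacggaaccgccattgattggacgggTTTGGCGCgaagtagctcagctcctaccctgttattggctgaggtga

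Of 1400 cells, 1332 with at least 2000 counts and 1000 detected genes were kept. Nkx2-5Cre embryos gave 738 of them, and 594 came from Isl1Cre embryos. Libraries held 8165519 to 38321215 counts, and no cell name occurred in more than 1 library. Levels are CPM, the count of a gene scaled to the same total in every cell, averaged over the kept cells of a library. The labelled tissue was described with a list of 12 cardiomyocyte genes. None was at 0 in any library, even among the cells lowest in Tnnt2, but a mean above 0 does not make each cell a cardiomyocyte. Among the cells lowest in Tnnt2 in the Isl1Cre E7.75 libraries the 12 genes summed to 871 and 707 CPM. The sum of 11 endoderm markers there was 5074 and 2925 CPM. In the Isl1Cre E9.25 library these cells held 38968 and 658 CPM of the 2 lists. Over all kept cells the 12 genes summed to 5544 to 13086 CPM in the 4 libraries at E7.75 and to 45452 CPM in the Isl1Cre E9.25 library. Erythroid genes reached 1183 to 1416 CPM in the Nkx2-5Cre E8.75 libraries, against at most 222.5 CPM elsewhere.

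Summed over the 33 genes, replication RNA was highest at E7.75 in both lineages, lowest at E8.75 in Nkx2-5Cre and lowest at E9.25 in Isl1Cre. In Nkx2-5Cre the sum at E7.75 was 4832 ± 62.3 CPM (mean ± SD, n = 2 libraries), the E8.25 sum 3957 ± 156, the E8.75 sum 3298 ± 169 and the E9.25 sum 3706 ± 54.3 CPM. In Isl1Cre it started higher, at 5991 ± 67.5 CPM, and stood at 5060.2 ± 5.4 at E8.25, 3306 ± 32.4 at E8.75 and 3112 in the single E9.25 library. Within each of the first 2 stages the libraries of the lineages did not overlap, with every Isl1Cre library above every Nkx2-5Cre library. At E8.75 the 2 lineages overlapped, and at E9.25 the Isl1Cre library lay below both Nkx2-5Cre libraries. The 11 endoderm markers also differed by stage and lineage. They summed to 2157 to 2832 CPM in the Isl1Cre E7.75 libraries and 3066 to 3122 at E8.25. They then summed to 948 to 969.5 at E8.75 and 665 at E9.25. In Nkx2-5Cre they summed to 1715 to 2364 CPM at E7.75, 776 to 935 at E8.25, 758 to 1197 at E8.75 and 689.5 to 793 at E9.25. The part of these cells in the stage and lineage differences was not tested.

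**Figure D1:**
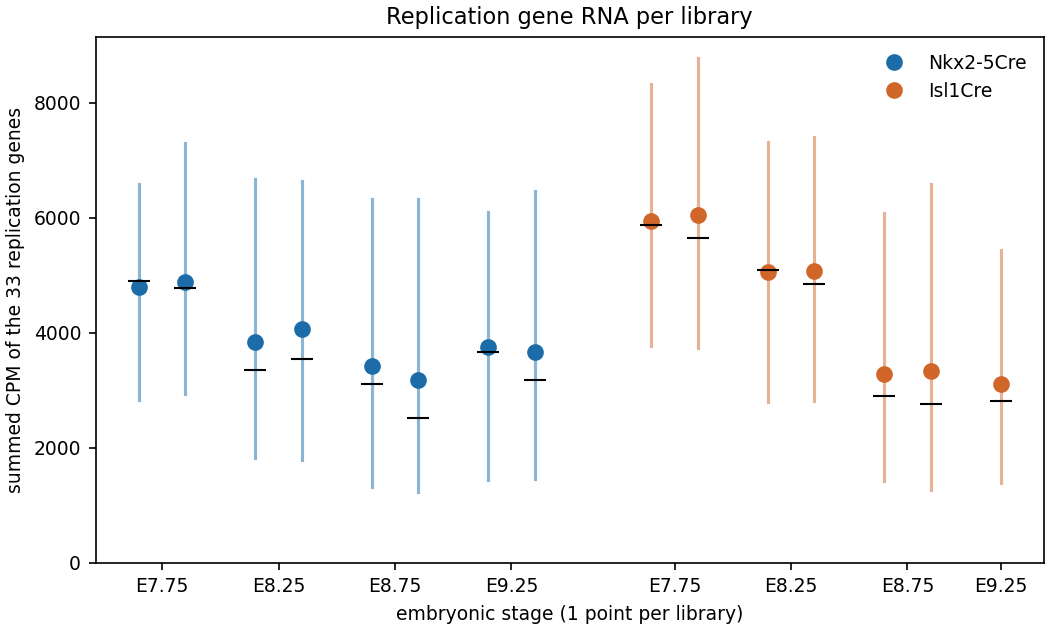
Summed CPM of the 33 replication genes in each of the 15 libraries, by stage and lineage. Points are means over kept cells, black bars are medians, and vertical lines span the 10th to the 90th percentile of the cells, whose lower end dropped more than its upper end in Nkx2-5Cre, from 2890 to 1447 CPM against 6937 to 6282 CPM between E7.75 and E9.25.

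A library mean mixes the share of cells in S phase with the RNA that each cell holds, so the cells were also described one by one. In Nkx2-5Cre the cell at the 10th percentile held 2890 CPM at E7.75 and 1274 CPM at E8.75, while the cell at the 90th percentile held 6937 and 6323 CPM. In Isl1Cre the 10th percentile went from 3745 to 1344 CPM and the 90th from 8542 to 6332 CPM over the same stages. In the Isl1Cre E9.25 library the 10th percentile was 1390 CPM and the 90th 5432 CPM, which is below the E7.75 median of 5759 CPM. Both ends of the distribution were thus lower at the later stages in Isl1Cre. The replication score is the mean log2(CPM + 1) over the 33 genes in a cell. In Nkx2-5Cre it averaged 5.80 ± 0.21 at the first stage, then 5.10 ± 0.18, 4.49 ± 0.31 and 4.86 ± 0.29 (mean ± SD of 2 libraries). In Isl1Cre it averaged 5.61 ± 0.07, then 5.73 ± 0.02, 4.27 ± 0.10 and, in the last library, 4.56, so that its highest score was at E8.25 while its highest sum was at E7.75. Depth touches the score: its Spearman correlation with the counts of a cell was 0.434 at the median library. With every cell thinned to 20000 counts, which leaves 1226 cells, the score spanned 1.27 between the highest and the lowest group, against 1.53 unthinned. There the order of the lineages turned at E7.75, to 5.01 ± 0.06 in Nkx2-5Cre against 5.06 ± 0.01 in Isl1Cre. At E8.75 it turned to 3.81 ± 0.31 against 3.84 ± 0.03, while at E8.25 Isl1Cre stayed higher, at 5.08 against 4.30. Thinned to 50000 counts, E7.75 kept its order, at 5.70 in Nkx2-5Cre against 5.59 in Isl1Cre. Unthinned cells of at least 20000 counts already stood at 4.64 in Nkx2-5Cre against 4.65 in Isl1Cre at E8.75.

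The change per day was the slope of log2(mean CPM + 1) on stage, fitted by limma over all 15 libraries and 10665 genes, and genes were called at a Benjamini-Hochberg adjusted p under 0.05. All 33 genes passed the filter on low values. In Nkx2-5Cre 10 of the 33 fell and none rose, against 11.6% of all tested genes called lower, with a median of -0.21 per day. In Isl1Cre 19 fell and none rose, against 10.2% of all genes, with a median of -0.65. The median over all tested genes was -0.01 per day in each lineage. Averaged over lineages, 19 fell (17.1% of all genes were called lower) and none of the 33 had a slope above 0. Without the E7.75 libraries only 1 gene was called in Nkx2-5Cre, 5 in Isl1Cre and 4 in the average. With the libraries of a group pooled, so that each group counts as 1 unit, no gene was called in Nkx2-5Cre, 8 in Isl1Cre and 12 in the average. The share of all genes called without the E7.75 libraries or with pooled groups is not given here, so these counts have no background beside them.

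**Figure D2:**
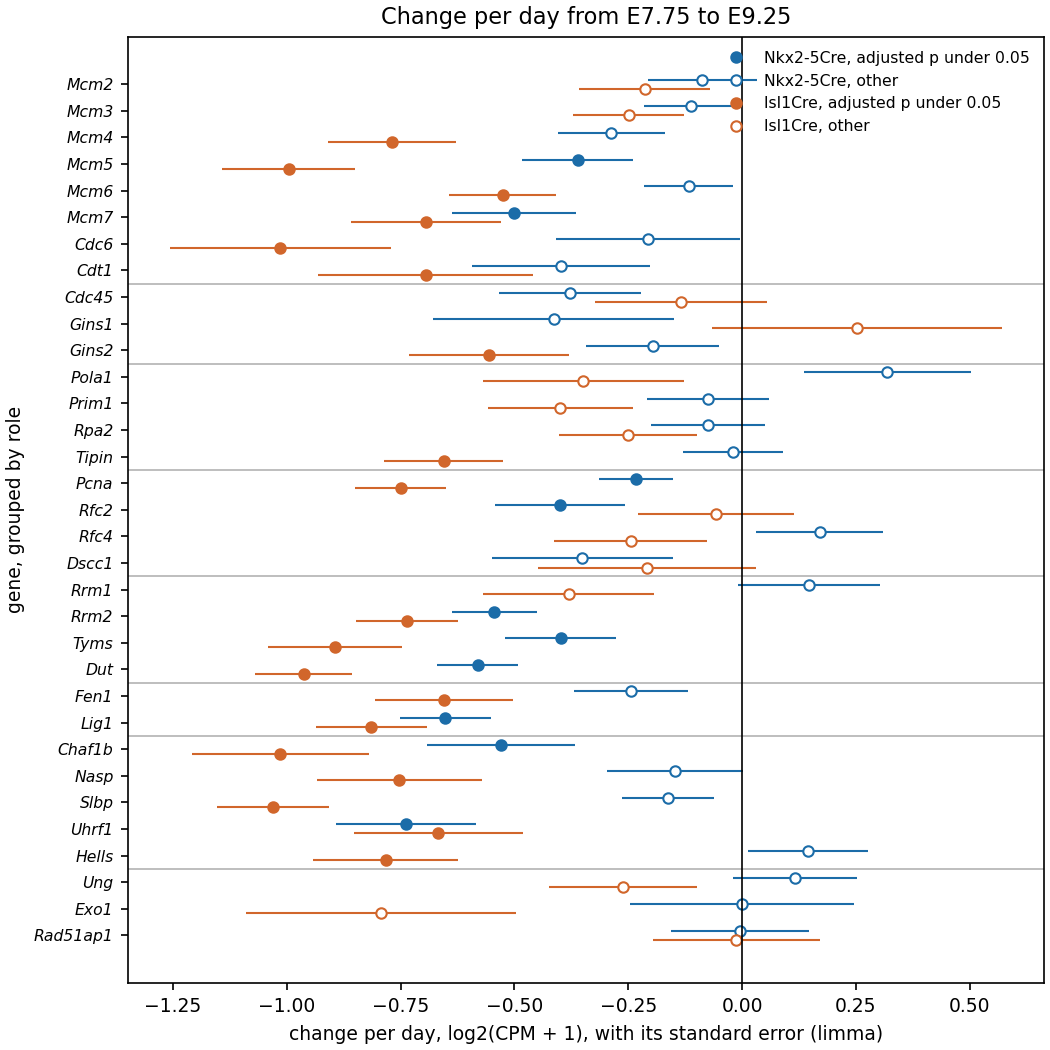
Change per day of each replication gene in Nkx2-5Cre and Isl1Cre cells, as log2(CPM + 1) per day with its standard error, genes grouped by role. Filled points passed an adjusted p of 0.05: 10 in Nkx2-5Cre and 19 in Isl1Cre, all below 0.

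Among the 8 licensing genes, which load and form the helicase, Mcm5 and Mcm7 fell in Nkx2-5Cre and 6 fell in Isl1Cre. Mcm6 averaged 163 and 169.9 CPM at E7.75 in Nkx2-5Cre, 148 and 147 at E8.25, 151 and 121 at E8.75, and 161 and 138 at E9.25. In Isl1Cre Mcm6 averaged 184 and 185 CPM, then 191 and 165, then 122 and 132, and 108 in the E9.25 library. In Nkx2-5Cre both E7.75 libraries lay above the later ones, which overlapped among themselves, and in Isl1Cre the 3 libraries of the later stages all lay below the 4 earlier ones. Mcm6 fell by 0.53 ± 0.12 (SE) per day in Isl1Cre (adjusted p = 0.00307), against -0.12 ± 0.10 in Nkx2-5Cre (adjusted p = 0.415). Mcm5, another helicase subunit, changed by -0.996 ± 0.147 per day in Isl1Cre and -0.36 ± 0.12 in Nkx2-5Cre, and Cdc6, a helicase loader, by -1.01 ± 0.24 and -0.21 ± 0.20. Mcm2 and Mcm3 passed in neither lineage, with slopes of -0.21 and -0.25 in Isl1Cre and -0.09 and -0.11 in Nkx2-5Cre. Mcm4 (-0.77) and Cdt1 (-0.70), the partner of Cdc6 in loading, fell in Isl1Cre.

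Of the 3 initiation genes, whose products join the MCM ring into the active helicase, only Gins2 passed, in Isl1Cre. Gins2 averaged 51.25 and 65.3 CPM at E7.75 in Nkx2-5Cre, 60.3 and 45.2 at E8.25, 64.6 and 47.0 at E8.75, and 50.1 and 40.5 at E9.25. Its E9.25 libraries lay below its E7.75 libraries, and the stages between overlapped with both. In Isl1Cre it averaged 65.75 and 65.05 CPM, then 61.1 and 56.3, then 46.6 and 44.0, and 35.8 at E9.25, with no overlap between stages, and it fell by 0.56 ± 0.18 per day (adjusted p = 0.0272). Cdc45 changed by -0.38 ± 0.16 in Nkx2-5Cre and -0.13 ± 0.19 in Isl1Cre. Gins1 had the widest error. Its 100.1 CPM in the first Isl1Cre E8.75 library came to 75.8% from 1 cell, and the mean without that cell was 24.6 CPM, close to the 23.1 CPM of the second library. In the single Isl1Cre E9.25 library 1 cell gave 55.9% of the 47.7 CPM of Gins1, and the mean without that cell was 21.3 CPM.

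The genes of priming and strand protection did not pass in Nkx2-5Cre, and Tipin passed in Isl1Cre. Tipin, a subunit of the fork protection complex, averaged 212 and 193 CPM at E7.75 in Nkx2-5Cre, 164 and 237 at E8.25, 183 and 139 at E8.75, and 207 and 217 at E9.25. In Isl1Cre it averaged 266 and 318 CPM, then 221 and 215, then 144 and 165, and 148 at E9.25. In Nkx2-5Cre the E8.75 libraries of Tipin lay below those of E7.75 and E9.25, which overlapped with each other, whereas in Isl1Cre each of the first 2 steps moved both libraries down, and the slope was -0.66 ± 0.13 per day (adjusted p = 0.00119). Pola1, the catalytic subunit of the priming polymerase, averaged 17.7 and 17.6 CPM at E7.75 in Nkx2-5Cre, 23.1 and 30.9 at E8.25, 31.0 and 25.5 at E8.75, and 19.97 and 32.4 at E9.25. In Isl1Cre Pola1 averaged 32.2 and 41.3 CPM, then 23.4 and 22.2, then 18.4 and 17.4, and 25.2. Its slopes, 0.32 ± 0.18 in Nkx2-5Cre and -0.35 ± 0.22 in Isl1Cre, did not pass. Prim1, the primase, and Rpa2, a subunit of the protein that coats bare strands, had slopes of -0.40 and -0.25 in Isl1Cre and -0.08 and -0.08 in Nkx2-5Cre, none of which passed.

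Pcna, the sliding clamp, fell in both lineages and fell faster in Isl1Cre. In Nkx2-5Cre it averaged 549 and 528 CPM at E7.75, 571 and 433 at E8.25, 377 and 371 at E8.75, and 453 and 450.0 at E9.25. In Isl1Cre Pcna averaged 688 and 638 CPM, then 659 and 673, then 349 and 362, and 332 at E9.25. Up to E8.25 every Isl1Cre library lay above every Nkx2-5Cre library, and from E8.75 every Isl1Cre library lay below. The slopes were -0.75 ± 0.10 per day in Isl1Cre (adjusted p = 1.6e-05) and -0.23 ± 0.08 in Nkx2-5Cre (adjusted p = 0.0447). Of 29 alternative runs, the Pcna fall passed in 29 for Isl1Cre and in 14 for Nkx2-5Cre, and the difference between the slopes in 12. Rfc4, a clamp loader subunit, averaged 46.0 and 43.7 CPM at E7.75 in Nkx2-5Cre, 51.25 and 51.8 at E8.25, 81.4 and 58.1 at E8.75, and 55.1 and 44.7 at E9.25, and in Isl1Cre 46.2 and 61.4, 53.6 and 48.0, 44.3 and 42.85, and 40.6 CPM. Its slopes were 0.17 ± 0.14 and -0.25 ± 0.17, and neither passed. Rfc2, another loader subunit, fell in Nkx2-5Cre (-0.40 ± 0.14, adjusted p = 0.0473) and had a slope of -0.06 ± 0.17 in Isl1Cre, and Dscc1, of an alternative loader, did not pass in either.

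Of the 4 genes of nucleotide supply, 3 fell in both lineages. Dut, which removes dUTP and so keeps uracil out of new DNA, averaged 496 and 491 CPM at E7.75 in Nkx2-5Cre, 281 and 262 at E8.25, 235 and 208 at E8.75, and 234 and 309 at E9.25. In Isl1Cre Dut averaged 538 and 573 CPM, then 374 and 403, then 222 and 203, and 215 at E9.25. The E7.75 libraries stood above all later ones in each lineage. Dut had a slope of -0.77 ± 0.07 per day over both lineages (adjusted p = 6.82e-08), with Chaf1b the largest fall among the 33. Rrm2, the regulated subunit of ribonucleotide reductase, had slopes of -0.54 ± 0.09 in Nkx2-5Cre and -0.74 ± 0.11 in Isl1Cre, and Tyms, which makes thymidylate, of -0.40 ± 0.12 and -0.89 ± 0.15. Rrm1, the other reductase subunit, did not pass, with 0.15 ± 0.16 and -0.38 ± 0.19; its second Nkx2-5Cre E8.75 library drew 52.9% of its 99.4 CPM from 1 cell.

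Both genes that finish and join lagging-strand fragments fell in Isl1Cre, and Lig1 fell in Nkx2-5Cre as well. Lig1, the replicative DNA ligase, averaged 269 and 312 CPM at E7.75 in Nkx2-5Cre, 286 and 249 at E8.25, 173 and 171 at E8.75, and 166 and 149 at E9.25. In Isl1Cre it averaged 329.7 and 267 CPM, then 384 and 315, then 185 and 174, and 139 at E9.25. In each lineage all libraries up to E8.25 lay above all later ones. Lig1 changed by -0.73 ± 0.08 per day over both lineages (adjusted p = 6.78e-07), by -0.65 ± 0.10 in Nkx2-5Cre and -0.81 ± 0.12 in Isl1Cre. Fen1, the flap nuclease, had slopes of -0.65 ± 0.15 in Isl1Cre and -0.24 ± 0.13 in Nkx2-5Cre, of which the first passed.

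All 5 genes of chromatin assembly and histone RNA fell in Isl1Cre, and Chaf1b and Uhrf1 in Nkx2-5Cre. Chaf1b, a subunit of the chromatin assembly factor, averaged 66.0 and 82.3 CPM at E7.75 in Nkx2-5Cre, 62.8 and 52.95 at E8.25, 36.6 and 31.8 at E8.75, and 59.0 and 37.4 at E9.25, and in Isl1Cre 87.2 and 77.6, 62.1 and 51.4, 27.75 and 40.3, and 28.7 CPM. Its slope over both lineages was -0.77 ± 0.13 (adjusted p = 0.000103). Uhrf1, which recruits the maintenance DNA methyltransferase to new DNA, fell by 0.74 ± 0.15 per day in Nkx2-5Cre and by 0.67 ± 0.19 in Isl1Cre.

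Slbp, which binds the stem-loop of histone mRNA, averaged 203 and 222 CPM at E7.75 in Nkx2-5Cre, 137 and 163 at E8.25, 153 and 118 at E8.75, and 184 and 180.1 at E9.25. In Isl1Cre Slbp averaged 270.0 and 289.7 CPM, then 250.03 and 262, then 117 and 142, and 103 at E9.25. The Isl1Cre libraries lay above all Nkx2-5Cre libraries up to E8.25 and the E9.25 library below all of them. Hells, a chromatin remodeller of the helicase family, averaged 70.4 and 79.8 CPM at E7.75 in Nkx2-5Cre, 52.4 and 75.05 at E8.25, 71.2 and 65.6 at E8.75, and 71.9 and 103 at E9.25. In Isl1Cre Hells averaged 166 and 166 CPM, then 105 and 107, then 82.2 and 67.9, and 72.5. Nasp, a chaperone of linker and core histones, averaged 431 and 477 CPM at E7.75 in Nkx2-5Cre, 236 and 516 at E8.25, 394 and 323 at E8.75, and 333 and 432 at E9.25, and in Isl1Cre 918 and 934, 513 and 619, 366 and 459.5, and 417 CPM. Both Isl1Cre E7.75 libraries exceeded every other library for Hells and Nasp, and the 2 Nkx2-5Cre E8.25 libraries differed widely for Nasp.

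None of the 3 repair genes passed in either lineage. Ung, the glycosylase that removes uracil from DNA, averaged 49.4 and 52.8 CPM at E7.75 in Nkx2-5Cre, 65.5 and 54.8 at E8.25, 52.3 and 56.8 at E8.75, and 65.2 and 55.8 at E9.25. In Isl1Cre Ung averaged 45.6 and 63.0 CPM, then 70.5 and 61.8, then 63.7 and 58.0, and 39.2. Its Nkx2-5Cre E7.75 libraries lay below those of E8.25 and E9.25, and its Isl1Cre E9.25 library lay below every other library. Rad51ap1 averaged 42.7 and 39.7 CPM at E7.75 in Nkx2-5Cre, 44.3 and 42.5 at E8.25, 31.5 and 32.1 at E8.75, and 55.3 and 37.1 at E9.25, and in Isl1Cre 39.8 and 50.35, 45.4 and 55.9, 36.3 and 32.1, and 48.6 CPM. Its slope over both lineages was -0.01 ± 0.12, the nearest to 0 of the 33. Exo1, an exonuclease of mismatch and break repair, had slopes of -0.79 ± 0.30 in Isl1Cre (adjusted p = 0.0609) and an adjusted p of 0.998 in Nkx2-5Cre.

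**Figure D3:**
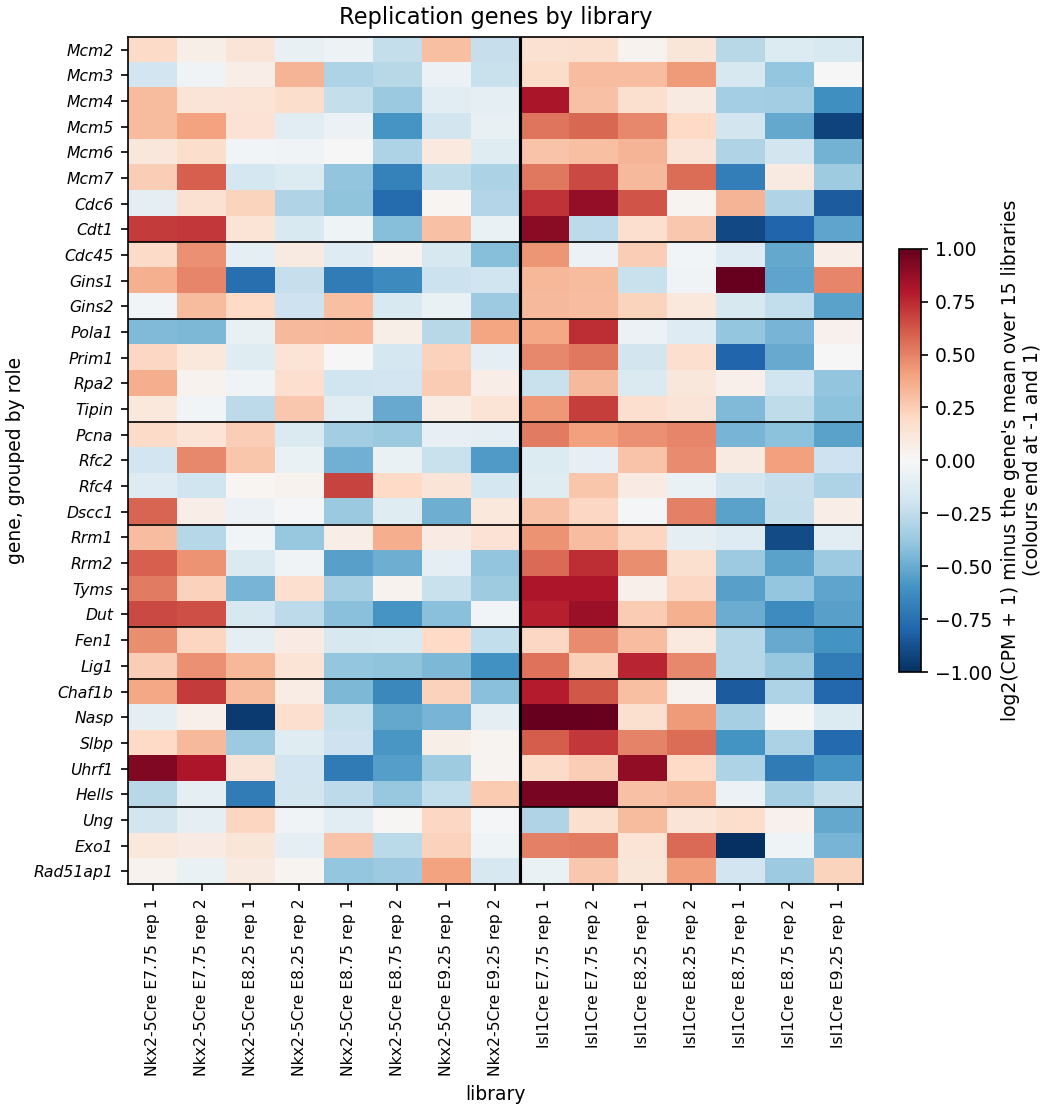
Level of each replication gene in each library, as log2(CPM + 1) minus the mean of the gene over the 15 libraries, with colours ending at -1 and 1; horizontal lines separate the 8 roles and the vertical line the lineages. The E7.75 and E8.25 libraries of Isl1Cre are red for most genes and the later ones blue. Gins1 is red in the first Isl1Cre E8.75 and in the Isl1Cre E9.25 library, where 1 cell gave 75.8% and 55.9% of the value.

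Falls passed the test in the steps before E8.75. With both lineages averaged, 6 of the 33 genes fell from E7.75 to E8.25 (8.48% of all tested genes were called lower) and 11 from E8.25 to E8.75 (4.13%). The first step included Dut (-0.72 ± 0.10), Tyms (-0.64 ± 0.14) and Rrm2 (-0.51 ± 0.10), all of nucleotide supply, with Nasp, Hells and Slbp. The second included Lig1 (-0.76 ± 0.11), Uhrf1 (-0.80 ± 0.17), Pcna (-0.63 ± 0.09) and 4 MCM subunits, of which Mcm3 changed by -0.54 ± 0.11. Dut, Rrm2 and Slbp passed in both steps. From E8.75 to E9.25 none of the 33 passed with limma, edgeR or DESeq2 (1.18% of all genes were called in either direction), the median was 0.12, and 2 were higher at an unadjusted p under 0.05. The first step gave 3 to 9 genes and the second 6 to 11 when libraries were left out in turn.

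The difference between the slopes of the lineages was tested directly. It was below 0 for 28 of the 33 genes, with a median of -0.38, and passed for 3, Slbp (chr5:33634952-33652574, minus strand), Hells (chr19:38930915-38971051, plus strand) and Pcna (chr2:132249162-132253314, minus strand; GENCODE vM21 on GRCm38), against 0.694% of all genes called lower. The slope in Isl1Cre minus that in Nkx2-5Cre was -0.87 ± 0.16 per day for Slbp (adjusted p = 0.00413), -0.93 ± 0.21 for Hells (adjusted p = 0.0197) and -0.52 ± 0.13 for Pcna (adjusted p = 0.0369). Tipin (-0.63 ± 0.17, adjusted p = 0.0554) and Mcm5 (-0.64 ± 0.19, adjusted p = 0.0856) missed the threshold. The count went from 1 to 11 as libraries were left out in turn: it was 11 without the single Isl1Cre E9.25 library, 5 without the second Nkx2-5Cre E8.25 library, and 1 without either Isl1Cre E7.75 library, the first Nkx2-5Cre E7.75 or the second Nkx2-5Cre E9.25 library. With each group as 1 unit none passed. Of 29 alternative runs, the difference passed in 28 for Slbp, 20 for Hells and 12 for Pcna.

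At E7.75 Isl1Cre cells held more RNA of Hells (1.18 ± 0.21, adjusted p = 0.00154), Nasp (1.08 ± 0.24, adjusted p = 0.00845) and Pola1 (1.06 ± 0.29, adjusted p = 0.0321), as log2 differences from Nkx2-5Cre. These were the 3 genes called of 33, against 3.33% of all genes called higher, and 26 of the 33 differences were above 0. At E8.25 Slbp (0.74 ± 0.16, adjusted p = 0.0104) and Dut (0.49 ± 0.14, adjusted p = 0.0498) were higher in Isl1Cre (2.50% of all genes were called higher). At E8.75 and E9.25 none passed with limma, where 0.319% and 0.975% of all genes were called in either direction. At an unadjusted p under 0.05, 2 genes were higher and 5 lower in Isl1Cre at E8.75, and 3 were lower at E9.25; DESeq2 called 1 lower at E9.25 and edgeR none. Averaged over the stages, Nasp (0.54 ± 0.13) and Hells (0.47 ± 0.11) were higher in Isl1Cre (3.68% of all genes were called higher), and without the E7.75 libraries neither passed. The cells at E7.75 also differed in muscle differentiation: Tnnt2 averaged 960.0 and 1313 CPM in Isl1Cre and 1818 and 1835 CPM in Nkx2-5Cre. Among cells with at least 1000 CPM of Tnnt2 the lineages differed for 4 of the 33 genes at E7.75. The share of all genes called among those cells, or at the unadjusted threshold above, is not given here.

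Replication RNA was then related to Tnnt2, which encodes cardiac troponin T of the thin filament and serves here as the axis of muscle differentiation. The cells of each library were ranked by Tnnt2, and split into 3 classes of equal size, Tnnt2-low, middle and Tnnt2-high, of which the outer were compared. Tnnt2 itself differed by stage, with 1818 and 1835 CPM at E7.75 and 6445 and 6566 CPM at E8.75 in Nkx2-5Cre. The summed level of the 33 genes was lower in Tnnt2-high cells in 15 of 15 libraries, at 0.52 to 0.81 times the level of Tnnt2-low cells (median 0.68), and the 3 classes were in falling order in 13. After thinning every cell to 20000 counts the ratio was 0.53 to 0.84 (median 0.64).

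**Figure D4:**
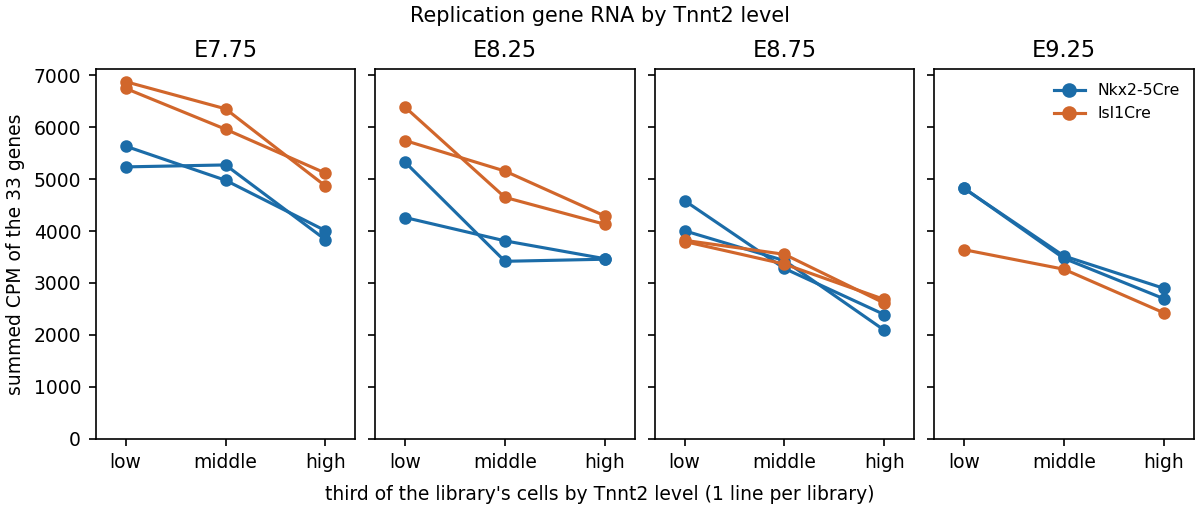
Summed CPM of the 33 replication genes in the Tnnt2-low, middle and Tnnt2-high cells of each library, 1 line per library and 1 panel per stage. Every line ends lower than it starts, with a high to low ratio of 0.52 to 0.81.

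With the difference between the outer classes tested across libraries by limma over 10844 genes, 26 of the 33 genes were lower in Tnnt2-high cells and none higher, against 14.4% of all genes called lower, and the median difference was -0.57 on the log2 scale. All 8 licensing genes, all 4 of nucleotide supply, both of fragment joining and all 5 of chromatin assembly and histone RNA passed. Of the loaders and initiators, Gins2 passed and Cdc45, Gins1, Rfc2, Rfc4 and Dscc1 did not. Ung (-0.33 ± 0.14, adjusted p = 0.0824) and Pola1 (0.14 ± 0.16, adjusted p = 0.578) also missed the threshold. Pola1 was the only one of the 33 with a difference above 0, and it was lower in Tnnt2-high cells in 6 of 15 libraries.

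Slbp averaged 67.1 to 202 CPM in Tnnt2-high cells (median 122) and 125 to 405 CPM in Tnnt2-low cells (median 268), and was lower in Tnnt2-high cells in every library, with log2 differences of -1.27 to -0.53. The modelled difference was -0.89 ± 0.08 (adjusted p = 1.52e-09). Pcna ranged from 239 to 615 CPM in Tnnt2-high cells (median 372) and from 381 to 816 CPM in Tnnt2-low cells (median 607), again lower in 15 of 15 libraries, with a difference of -0.58 ± 0.06 (adjusted p = 1.48e-08). The ranges overlap between libraries, but within each library Tnnt2-high cells lay below Tnnt2-low cells. Rrm2 ranged from 65.7 to 294 CPM (median 205) against 198 to 509.5 CPM (median 314), at -0.72 ± 0.07. Chaf1b (-1.10 ± 0.15) and Exo1 (-1.23 ± 0.24) had the largest differences, each lower in 14 of 15 libraries.

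The number of genes called lower by Tnnt2 level at E7.75 was 6 (4.60% of all genes), the E8.25 count 7 (6.46%), the E8.75 count 19 (6.46%) and the E9.25 count 14 (2.17%), with medians of -0.40, -0.38, -0.73 and -0.77. The differences between these stages were not tested. Pcna, Rrm2 and Slbp passed at every stage. Chaf1b differed by -1.91 ± 0.28 at E8.75 and -1.36 ± 0.35 at E9.25 and was not called at the earlier stages. The classes of a library can differ in cell type as well as in muscle differentiation. The 10 endothelial markers summed to 68.3 to 445 CPM in Tnnt2-high cells and 198 to 1245 CPM in Tnnt2-low cells. They were higher in the latter in 15 of 15 libraries. The 11 endoderm markers were higher in Tnnt2-low cells in 6 libraries, those of E7.75 in both lineages and of Isl1Cre at E8.25. In Isl1Cre they summed to 5074 and 2925 CPM in Tnnt2-low cells at E7.75, against 1490 and 1306 CPM in Tnnt2-high cells. At E8.25 these sums were 5147 and 5245 CPM against 2035 and 1892 CPM. In all other libraries the endoderm sum was higher in Tnnt2-high cells. The 8 erythroid genes summed to 3612 and 3421 CPM in Tnnt2-low cells of the Nkx2-5Cre E8.75 libraries, against 293 and 81.6 CPM in Tnnt2-high cells. In the other libraries they reached at most 316 CPM in either class. The part of such cells in the Tnnt2 difference, and in the counts by stage, was not tested. Cells under 1000 CPM of Tnnt2 were also left out, and the remaining 1031 cells were split at the median of each library. In that split 20 of the 33 genes were called lower, with a median of -0.41. The share of all genes called lower in that split is not given here.

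**Figure D5:**
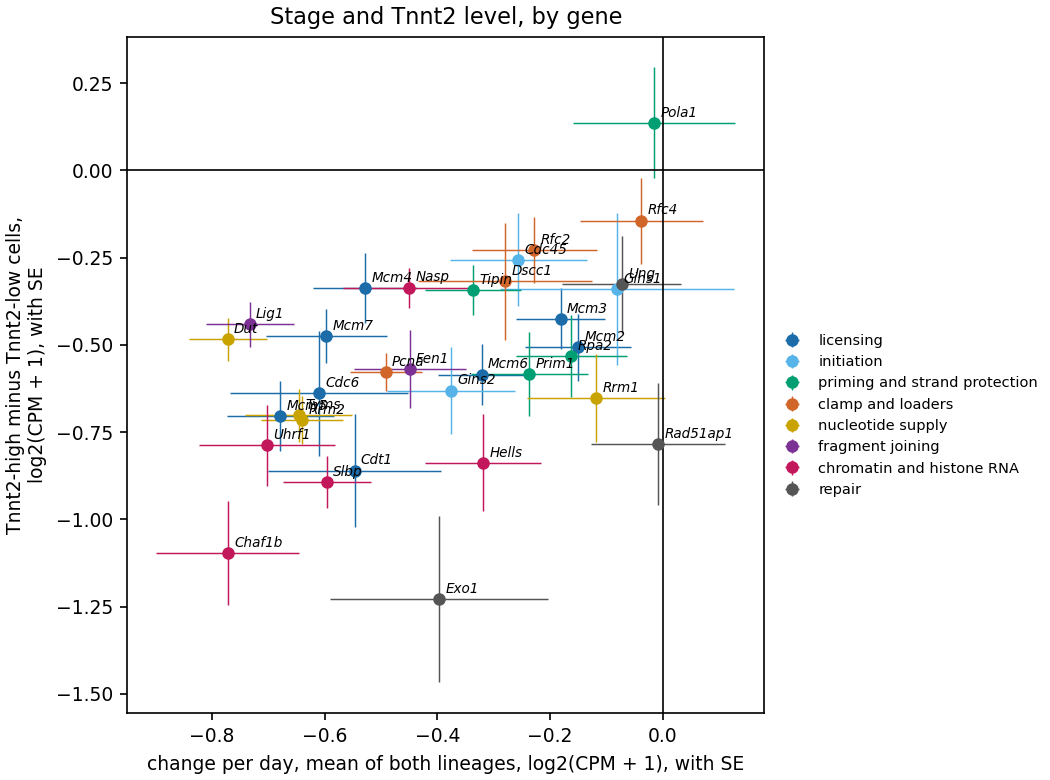
Each replication gene by its change per day averaged over lineages (x axis) and its difference between Tnnt2-high and Tnnt2-low cells (y axis), both as log2(CPM + 1) with standard errors and coloured by role; both quantities come from the same cells. Chaf1b, Dut and Lig1 lie farthest left, Exo1 and Chaf1b lowest, and Pola1 alone above 0 on the y axis.

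Cell by cell, the replication score was negatively correlated with Tnnt2 in every library. Spearman's rho was -0.507 to -0.181 (median -0.379) over 61 to 94 cells per library, and -0.563 to -0.235 with the summed CPM in place of the score. Cells of a library share depth and library preparation, and the coefficients are given as a description. Tnnt2 itself followed the counts of a cell with a median rho of -0.073. With cells thinned to 20000 counts the median rho of score and Tnnt2 was -0.423. The same score followed the mean log2(CPM + 1) of the G2 and M genes with a median rho of 0.382, from -0.227 to 0.566. This median was 0.169 with cells thinned to 20000 counts and 0.098 at 50000 counts, where rho was negative in 5 of 15 libraries.

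The 33 genes varied together among the cells of a library. For each of the 528 pairs the median rho over libraries was above 0, with a median over pairs of 0.247. This was computed in the 1226 kept cells with at least 20000 counts, without thinning. In those cells the replication score still followed the counts of a cell, with a median rho of 0.354. The part of shared depth in these correlations was not tested. Pcna followed the rest most closely (median rho with the mean of the other 32 genes 0.721, from 0.497 to 0.812 over libraries), then Rrm2 (0.675), Mcm6 (0.583) and Chaf1b (0.576). Gins1 (0.257) and Pola1 (0.260) followed least, and were detected in 62.8% and 51.5% of cells, against 99.7% for Pcna. Other genes detected in few cells were Dscc1 (47.4% of cells, rho 0.364), Exo1 (53.8%, 0.441), Cdc6 (55.5%, 0.472) and Cdt1 (64.6%, 0.307). Rrm2 and Mcm6 were detected in 97.1% and 95.2% of cells, but Chaf1b in 72.6%. Rfc2, detected in 98.8%, was at 0.32. The part of detection in this order was not tested. The closest pair was Pcna and Rrm2 (0.601), followed by Mcm6 and Pcna (0.544). Licensing genes were close to 0 against the G2 and M genes, as for Mcm6 (-0.073) and Mcm3 (-0.004), while Rrm2 was at 0.429 and Rrm1 at 0.310.

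Other genes of replication were read from a further list of 59, of which 56 passed the filter. Averaged over lineages, 20 of the 56 fell per day and none rose, against 17.1% of all genes called lower, with a median of -0.24. The 3 lowest p-values belonged to 2810417H13Rik, which encodes the PCNA-associated factor PCLAF (-0.62 ± 0.07), Rnaseh2a, a subunit that helps remove RNA primers (-0.84 ± 0.15), and Cdca7, a partner of Hells (-0.79 ± 0.14). The 3 lowest with a slope above 0 were Rpa3 (0.17 ± 0.09), Rfc1 (0.22 ± 0.12) and Clspn (0.16 ± 0.14), none of which passed. By Tnnt2 level 27 of the 56 were lower and none higher, against 14.4% of all genes called lower, with a median of -0.41. Of 38 genes of G2 and mitosis, 18 fell per day and none rose, against the same 17.1% of all genes, with a median of -0.23. The falls were led by Cdc20 (-0.94 ± 0.14), Tacc3 (-0.56 ± 0.10) and Ncapd2 (-0.64 ± 0.13). In Tnnt2-high cells 16 of the 38 were lower, against the same 14.4% of all genes, with a median of -0.28. From E8.75 to E9.25 4 of the 38 rose, with a median of 0.42, against none of the 33 replication genes and a median of 0.12. In that step 1.18% of all genes were called in either direction. The 38 and the 56 genes were called by the same fit as the 33, and the difference between the lists was not tested.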

How the data were processed

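Single cells were profiled with a modified Smart-seq2 that captures transcript 3′ ends with barcodes and unique molecular identifiers, per the labels' protocols. The deposited values are CPM per gene and cell, made by the authors. They used TopHat2 2.0.12, CASAVA 1.8 and HTSeq with the mm10 build, per the submitters' processing notes. Low CPM values were whole multiples of 1 count (tolerance 0.1 step), and no source used here says whether reads or molecules were counted. Lineage was read from the letters N and I in the sample titles.

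Cells with at least 2000 counts and 1000 genes were kept and CPM averaged per library. Genes with at least 5 CPM in 2 or more libraries were scaled by TMM (factors 0.9546 to 1.042) and tested as log2(CPM + 1) with limma 3.58.1 (trended, 7 residual degrees of freedom, Benjamini-Hochberg adjustment); a fold change on this scale understates the change of low genes. Tnnt2-high and Tnnt2-low cells were compared as differences within a library, with Tnnt2 left out of the test. Alternatives used edgeR 4.0.16 and DESeq2 1.42.0 on recovered counts, other filters, pseudocounts, thinned cells and left-out libraries. The limma step was tested on simulated data. Python 3.11.15 and R 4.3.3 were used. The genes and lists were chosen with earlier results of these data known. Values are given in every library for the leading gene of each role, the 3 most negative and 3 least negative slopes over both lineages, and the genes whose slopes differed between lineages; from the other lists, the 3 lowest p-values in each direction. Paired libraries of a group differed by more than sampling noise.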

Additional observations from a re-analysis of the deposited data

Results flagged for a closer look

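For 3 of the 33 replication genes the change per day differed between the lineages in the test of the difference itself (limma, adjusted over 10665 genes). The slope in Isl1Cre minus that in Nkx2-5Cre was -0.868 for Slbp, the histone mRNA binding protein, -0.927 for Hells, the chromatin remodeller, and -0.517 for Pcna, the sliding clamp, on the log2 scale per day. In all 3 the Isl1Cre slope was the more negative, at -1.03, -0.78 and -0.75, against -0.16, 0.14 and -0.23 in Nkx2-5Cre. The difference passed in 28 of 29 alternative runs for Slbp, 20 for Hells and 12 for Pcna. Each group comes from few libraries, and the lineages cannot be told apart from the embryos that carried them.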

How the results depend on the processing

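Counts below are genes of the 33 called by limma unless another tool is named. The share of all genes called in the alternative runs is not given here. The Tnnt2 difference (26 genes) stayed within 1.5 times under every alternative run. Without the E7.75 libraries 1 gene was called per day in Nkx2-5Cre, 5 in Isl1Cre, 4 in the average of the lineages, 1 in the slope difference and 0 between lineages over all stages. Without the filter on low values these were 4 in Nkx2-5Cre, 1 in the slope difference, 0 between lineages over all stages, 1 at E7.75, 1 at E8.25, 3 from E7.75 to E8.25 and 7 from E8.25 to E8.75. With each group pooled to 1 unit they were 0 in Nkx2-5Cre, 8 in Isl1Cre, 12 in the average, 0 in the slope difference and 0 between lineages over all stages; single stages and steps could not be fitted. With cells of at least 1000 CPM of Tnnt2 they were 6 in Nkx2-5Cre, 1 in the slope difference, 1 at E8.25 and 6 from E8.25 to E8.75. DESeq2 called 8 in the slope difference, 7 at E7.75, 6 at E8.25, 1 at E9.25 and 11 from E7.75 to E8.25, and edgeR 4 at E8.25. Cells of at least 20000 counts gave 1 at E9.25 and 10 from E7.75 to E8.25, and 1 gene was called at E8.25 with all cells kept or cells thinned to 20000 counts. The score span of 1.53 was 1.93 with all cells and 1.27 thinned.

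Leaving out 1 library at a time gave 4 to 10 genes in Nkx2-5Cre, 17 to 22 in Isl1Cre, 17 to 25 in the average, 1 to 11 in the slope difference, 26 to 28 by Tnnt2, 2 to 3 between lineages over all stages, 1 to 4 at E7.75, 0 to 3 at E8.25, 0 to 1 at E8.75, 0 to 0 at E9.25, 3 to 9, 6 to 11 and 0 to 0 in the 3 steps. The Nkx2-5Cre count was 5 without the second E7.75 library and 4 without the second E9.25 library. The E7.75 count was 1 without either Isl1Cre or the first Nkx2-5Cre library of that stage, and the E8.25 count was 0 without either Isl1Cre library. The first step gave 3 without the first Isl1Cre E8.25, second Nkx2-5Cre E7.75 or first Nkx2-5Cre E8.25 library, and the second gave 6 without the first Isl1Cre E8.25 and 7 without the second Nkx2-5Cre E8.75 library. Of single-gene calls, 297 lost the threshold under an alternative, 2509 did not and 1 reversed: Hells had a mean slope of 0.003 without the E7.75 libraries (adjusted p = 0.994). The cause was not tested.

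Replicate numbers did not pair the samples: deviations of same-numbered libraries correlated at -0.031 to 0.166 over 21 pairs of groups. With the replicate block 10 genes were called in Nkx2-5Cre, 19 in Isl1Cre, 19 in the average, 3 in the slope difference, 4 at E7.75, 2 at E8.25 and 23 by Tnnt2, and no count moved by over 1.5 times. The block ended the call of Dut at E8.25 (adjusted p = 0.0508), and 3 of the 26 calls by Tnnt2.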
